A study of Mus musculus with 24 samples.

Results

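Whole testes of wild-type (WT) mice at postnatal day 26 were compared with whole testes of WT mice at day 20, using all genes of the deposited count tables. The members were the 2 WT libraries of day 26 and the 4 WT libraries of day 20, 6 of the 24 libraries of the series, chosen by the genotype and age on their labels. The other libraries came from WT mice at days 22 and 24 and from homozygous *Atad2* knockout (KO) mice at the same 4 ages, in which a *lacZ* fusion and the removal of exon 12 by a ubiquitously expressed Cre leave no functional ATAD2 protein. The WT mice carried neither change. The study used these ages to ask which genes respond to the loss of ATAD2 as the first post-meiotic cells appear. The labels number 4 libraries at day 20, while the methods of the study list fewer for that age without saying which, and all 4 were kept. The methods call the libraries biological replicates but neither source says whether each came from a separate mouse. The p-values therefore measure spread between libraries, and that spread was estimated from all 24 libraries of the series. A library name such as WT_d20_2 gives the genotype, the day and the replicate number.

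The first wave of spermatogenesis runs through the juvenile mouse testis almost in step. Spermatogonia enter meiosis, spermatocytes pair and recombine their chromosomes, and the first round spermatids then build an acrosome, a flagellum and, later, a condensed nucleus in which transition proteins and protamines take the place of histones. Sertoli cells nurse the germ cells, peritubular myoid cells wrap the tubules, and Leydig cells between the tubules make androgen. Levels are shares of the RNA in a library. In whole tissue, fewer cells of a type, less RNA per cell and more RNA from other cells therefore cannot be told apart.

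The 6 libraries held 10709667 to 18017080 counts assigned to genes. Levels are given as CPM, the usual depth-scaled count corrected for library composition, and changes as fitted log2 fold changes of day 26 over day 20. The quasi-likelihood test of edgeR was applied to 17170 genes, and a gene is called where its Benjamini-Hochberg adjusted p was under 0.05. WT_d20_2 stood apart from the other 3 libraries of day 20. Its correlation with them over log2 levels of genes was 0.955 to 0.966, against 0.978 to 0.988 among those 3, and mitochondrial ribosomal RNA took 3.26% of its counts against 0.484% to 0.816%. Where a named gene gained or lost its call without it, that value is given. *Sox9*, *Cyp17a1* and *Sycp3*, which mark Sertoli cells, Leydig cells and spermatocytes, had counts in every library.

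Of the genes tested, 7292 were called, 4183 of them higher at day 26 (24.4% of all tested) and 3109 lower (18.1%). The rises were far larger than the falls. The median log2 fold change was 1.44 among genes called higher and −0.67 among those called lower, beside −0.04 over all genes tested. A test against a 2-fold change (glmTreat in edgeR) called 1857 genes higher (10.8%) and 28 lower (0.163%). At day 20, 246 of the genes called higher had no count in any library. Among the genes called, 4090 of the 4183 higher and 2867 of the 3109 lower had no overlap between the libraries of the 2 ages. Over all genes tested the libraries did not overlap for 27.9% in the upward direction and 22.5% in the downward one. Scaling by library totals alone moved the median of all genes to −0.15 and the split to 3641 higher and 4065 lower, from 57.4% of calls higher to 47.2%. The number called lower rested on both day 26 libraries, being 1835 without WT_d26_1 and 1377 without WT_d26_2, and it was 616 when only the 6 libraries were fitted.

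**Figure D1:**
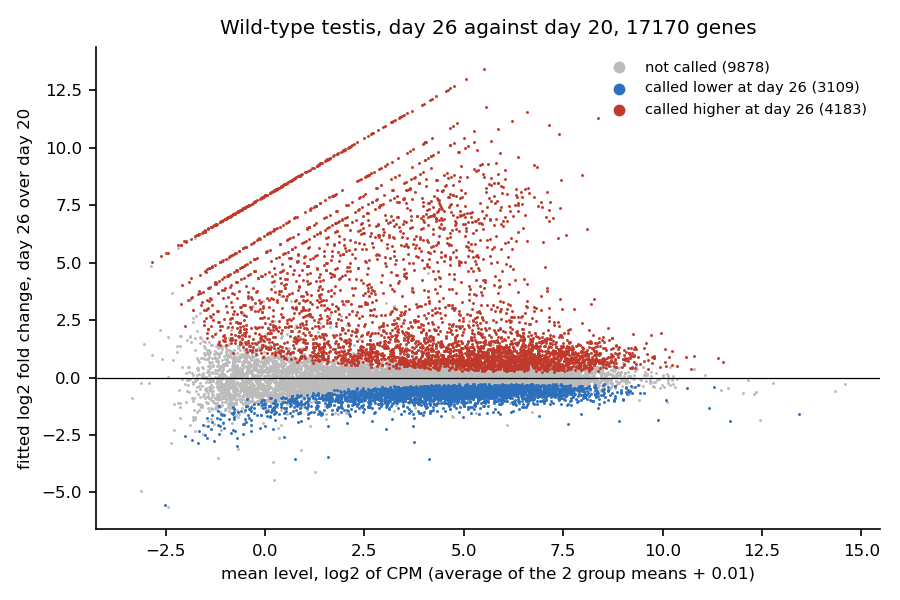
Fitted log2 fold change, WT day 26 over day 20 (vertical axis), against the mean level on a log2 CPM scale (horizontal axis), 1 point per gene tested. Red points are the 4183 genes called higher, blue points the 3109 called lower and grey points were not called; the slanted lines of points at the upper left are genes with 0 or very few counts at day 20.

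The share of each library that the called genes took is given as a description. These genes were chosen by the same contrast, which fixed the direction of the share between day 20 and day 26. Genes called more than 2-fold higher took 0.927% to 1.62% of the assigned counts at day 20 and 8.47% and 8.64% at day 26. Between those ages, in libraries outside the comparison that shared its fit, they took 2.38% to 3.16% at day 22 and 4.95% and 5.74% at day 24. The genes called lower took 21.8% to 28.4% at day 20 and 13.3% and 14.1% at day 26, with 17.2% to 19.3% at day 22 and 15.8% and 16.1% at day 24.

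The promoters of the strongly rising genes are shown first, because a group of them shared a short sequence. The cAMP response element, TGACGTCA, is bound by CREM, an activator of spermatid genes. Bases are given on GRCm38.p6 as listed by RefSeq, in the direction of transcription, with capitals marking TGANGTCA or its reverse complement. The first stretches run from 120 bases before the listed start to the base before it, for genes whose proteins package the spermatid nucleus: *Tnp1* (chr1:73015900-73016019, minus strand), *Prm1* (chr16:10796824-10796943, minus), *Prm2* (chr16:10792106-10792225, minus) and *Tnp2* (chr16:10788656-10788775, minus). The last 3 lie side by side in 1 cluster. No match to the marked letters was found in the windows of *Prm2* and *Tnp2*.
Tnp1: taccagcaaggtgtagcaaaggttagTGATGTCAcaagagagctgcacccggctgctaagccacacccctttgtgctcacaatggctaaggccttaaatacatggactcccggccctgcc
Prm1: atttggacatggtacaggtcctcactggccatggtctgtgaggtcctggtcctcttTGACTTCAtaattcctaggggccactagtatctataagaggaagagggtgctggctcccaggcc
Prm2: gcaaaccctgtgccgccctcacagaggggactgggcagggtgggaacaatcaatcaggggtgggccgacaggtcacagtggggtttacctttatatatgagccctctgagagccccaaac
Tnp2: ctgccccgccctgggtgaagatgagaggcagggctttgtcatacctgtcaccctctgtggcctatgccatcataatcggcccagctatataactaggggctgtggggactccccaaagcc

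The variant in the *Tnp1* promoter, TGATGTCA, was found within the 300-base windows of 12.2% of the genes called more than 2-fold higher (169 of the 1380 with a listed promoter). It was found in 3.76% of all 27025 promoters, 2.65% of those of genes tested, 1.55% of those of genes not called and 1.11% of those of genes called lower. TGAAGTCA and TGAGGTCA were also at higher shares among the strongly rising genes, 3.19% and 5.43%, against 1.25% and 1.84% of genes tested. The palindrome TGACGTCA itself was not, at 2.97% against 2.98%. All 4 forms together, TGANGTCA, were in 22.5% of the promoters of strongly rising genes and 8.42% of those of genes tested. Of the 194 matches to TGATGTCA in the rising set, 78.9% began within 100 bases before the start, against 68.6% for genes tested, 62.4% for genes not called and 57.1% of the 1081 matches over all promoters. Promoters of the rising set were poorer in G and C, with a median of 50.7% against 59.7% for genes tested. Among promoters with 45% to 55% G and C, 17.0% of the rising set held TGATGTCA and 2.43% of genes not called did. Above 65% the shares were 0.73% and 1.12%. The letters were chosen after the values were seen. The palindrome was searched first, and the other forms, which differ from it in 1 base, were searched after it showed no difference and the *Tnp1* promoter had been looked at. The shares are therefore descriptions without a test, a match is not a binding site, and the part of base composition beyond these bands was not tested.

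The 6 genes with the highest CPM at day 26 among those called more than 2-fold higher with TGATGTCA before the start, *Tnp1* aside, are shown as 60-base stretches with that variant or its reverse complement in capitals. They are *Akap3* (chr6:126853038-126853097, plus), *Hk1* (chr10:62379927-62379986, minus), *Akap4* (chrX:7067454-7067513, plus), *Gsg1* (chr6:135254338-135254397, minus), *Actl7b* (chr4:56741428-56741487, minus) and *Gapdhs* (chr7:30743742-30743801, minus). *Izumo1* (chr7:45621689-45621748, plus) is added as a gene with the palindrome.
Akap3: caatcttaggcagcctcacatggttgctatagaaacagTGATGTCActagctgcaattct
Hk1: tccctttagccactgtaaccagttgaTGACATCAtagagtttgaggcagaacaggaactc
Akap4: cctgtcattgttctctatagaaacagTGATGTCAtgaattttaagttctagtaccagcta
Gsg1: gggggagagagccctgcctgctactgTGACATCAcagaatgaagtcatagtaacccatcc
Actl7b: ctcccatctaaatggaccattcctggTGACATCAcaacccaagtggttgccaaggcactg
Gapdhs: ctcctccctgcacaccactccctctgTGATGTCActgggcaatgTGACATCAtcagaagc
Izumo1: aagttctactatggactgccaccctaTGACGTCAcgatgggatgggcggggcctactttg

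Other letters were searched in the same windows, on both strands. GTTGCC, part of the site of RFX factors, was in 20.6% of the promoters of strongly rising genes and 13.5% of those of genes tested, and GTTGCC followed directly by ATGG was in 1.88% and 0.591%. The 3 strongly rising genes with the highest CPM that held the longer form before the start were *Lrrc34* (chr3:30647834-30647893, minus), *Nsun7* (chr5:66259818-66259877, plus) and *1700034J05Rik* (chr6:146954422-146954481, minus), with the longer form in capitals. CAACNG, the core bound by MYB proteins, was in 41.0% and 34.3%, and TATAAA in 11.2% and 8.02%. GGGCGG, bound by Sp1-type factors, was in fewer, 24.5% against 57.7%, and CACGTG in 5.51% against 9.48%. CCAAT was in 38.8% and 38.3%, TGACGTAA in 0.652% and 0.785%, and TGACGCA in 1.81% and 3.29%.
Lrrc34: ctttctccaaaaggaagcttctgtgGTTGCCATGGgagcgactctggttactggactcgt
Nsun7: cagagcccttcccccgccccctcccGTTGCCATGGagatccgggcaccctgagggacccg
1700034J05Rik: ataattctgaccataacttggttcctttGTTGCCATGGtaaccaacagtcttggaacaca

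Among the genes that package the spermatid nucleus, the transition proteins and protamines went from near 0 to high levels. *Prm1* (chr16:10796326-10805839), which encodes protamine 1, had 0, 0.105, 0.173 and 0.72 CPM in the day 20 libraries and 944 and 385 CPM at day 26. All day 20 libraries were near 0 and the day 26 libraries lay far above them, though they differed from each other. The fitted log2 fold change was 11.27 (SE 1.5, adjusted p = 9.69e-06). *Tnp1* (chr1:73015074-73015909), transition protein 1, had 3 counts in all at day 20, all in WT_d20_4, and 263 and 125 CPM at day 26. The ratio was 3588-fold with an exact 95% counting interval of 1227 to 17400. *Prm2* went from a mean of 0.115 ± 0.141 (SD, n = 4) to 281 ± 76.7 CPM (SD, n = 2) and *Tnp2* from 0.203 ± 0.155 to 335 ± 125 CPM.

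The gene with the largest fitted rise was *H1fnt* (chr15:98255986-98257293), a spermatid linker histone. It had no count in the 4 day 20 libraries and 101 and 80.4 CPM at day 26. Against a floor of 3 counts over the day 20 group, 0.0562 CPM, it was at least 1637-fold higher. Such bounds use the counts of each age pooled over its libraries, not the mean of the library CPM values. Of the 16 tested members of the list of transition proteins, protamines and histone eviction genes, 12 were called higher, 2 lower and 2 not called, with a median log2 fold change of 6.36. *Chd5* and *Nutm1*, which act in histone removal, rose by 4.82 (SE 0.54) and 3.39 (SE 0.33). The lower members were *Rnf8*, a ubiquitin ligase of histones, with 4.25 to 7.06 CPM at day 20 and 2.55 and 3.37 at day 26 (log2 fold change −0.97, adjusted p = 0.00201, but 0.0549 without WT_d26_1 and 0.0566 when only the 6 libraries were fitted), and *Hist1h2aa*, a testis H2A. *Hist1h2aa* had 1071 CPM in WT_d20_2 and 194 to 334 in the other day 20 libraries, and without WT_d20_2 its change was −0.61 (adjusted p = 0.178), and the call was also lost without either day 26 library. Histone genes have near-identical copies, so their counts are uncertain.

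All of the 10 genes with the largest fitted rises, by a rule asking for at least 10 CPM and no overlap, had 0 counts at day 20. Besides *H1fnt* they were *Ccdc185*, *Fam71a*, *Ubqlnl*, *Adam6b*, *Spata31d1c*, *1700024P04Rik*, *Prss55*, *4931408C20Rik* and *4930435E12Rik*. Their mean levels at day 26 ran from 32.0 CPM in *4930435E12Rik*, at least 575-fold higher, to 66.2 CPM in *Ccdc185*, at least 1196-fold higher. *Ubqlnl* encodes a ubiquilin-like protein and *Prss55* a sperm serine protease. *Adam6b* and *Spata31d1c* have close relatives in the genome, and their counts are uncertain for that reason.

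**Figure D2:**
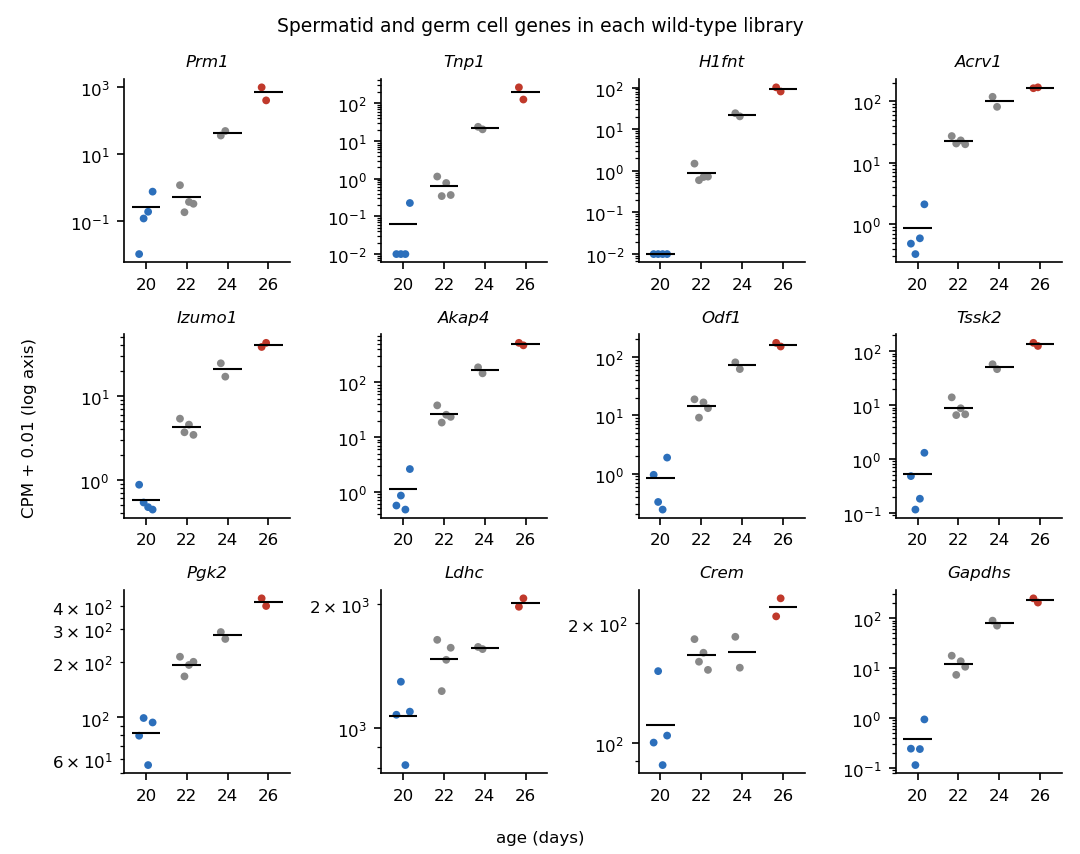
Level of 12 spermatid and germ cell genes in each WT library, as CPM plus 0.01 on a log axis, against age in days. Points are libraries (blue day 20, grey days 22 and 24, red day 26) and bars are means; *Prm1*, *Tnp1* and *H1fnt* sit near 0 at day 20 and at 80.4 CPM or more at day 26, while *Ldhc* and *Crem* are already high at day 20.

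Genes of the acrosome, the secretory cap of the sperm head, rose in 17 of 18 tested members, with a median log2 fold change of 6.73. *Acrv1* (chr9:36693220-36698843), an acrosomal matrix protein, had 0.472, 0.316, 0.578 and 2.09 CPM at day 20 and 162 and 167 at day 26. The highest day 20 library was WT_d20_4, and no day 20 library came near day 26 (log2 fold change 7.51, SE 0.78, adjusted p = 4.12e-07). *Acr*, the protease acrosin, was already at 44.2 ± 17.8 CPM at day 20 and rose to 153 ± 9.72. *Spaca1*, a membrane protein of the acrosome, went from 2.46 ± 0.917 to 76.7 ± 13.8 CPM. The largest rise was that of *Sppl2c*, a signal peptide peptidase-like protease with 1 count in all at day 20 and a ratio of 5100-fold (exact 95% counting interval 915 to 201500). *Pla2g15* was not called, at −0.12 (adjusted p = 0.585).

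Of 18 genes of the sperm surface and sperm-egg fusion, 16 were called higher and 2 lower. *Izumo1*, the sperm partner of the egg receptor JUNO, had 0.432 to 0.864 CPM at day 20 and 38.4 and 43 CPM at day 26. The levels did not overlap, and the fitted rise was 6.15 on the log2 scale (SE 0.58, adjusted p = 1.49e-07). The ADAM family, membrane proteins of the sperm surface, was uneven: *Adam2* rose by 0.79 (SE 0.14) and *Adam3* by 1.88 (SE 0.19), while *Adam1a* rose by 4.78 (SE 0.39). The 2 that fell were *Tex101* and *Ly6k*, whose GPI-anchored proteins act together in the processing of sperm surface proteins. *Tex101* had 409 to 787 CPM at day 20 and 282 and 253 at day 26 (log2 fold change −0.98, adjusted p = 0.001), and neither it nor *Ly6k* was called when only the 6 libraries were fitted (adjusted p = 0.0545 and 0.142). *Ly6k* had 109 to 118 CPM in 3 day 20 libraries, 256 in WT_d20_2, and 86.4 and 79.6 at day 26 (−0.84, adjusted p = 0.0134), and its call was lost without WT_d26_1 or WT_d26_2 (adjusted p = 0.0526 and 0.106).

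All 19 tested genes of head shape, calyx and nuclear bridge were called higher, with the highest list median, 7.46. *Actrt3*, an actin-related protein of the calyx, had no count at day 20 and 27.6 and 17.8 CPM at day 26, at least 413-fold higher. *Ccin* (calicin) and *Capza3* rose by 8.74 and 8.85, whereas *Hook1*, a microtubule linker of the manchette, rose by 0.84 and *Spata16* by 0.52. The 6 testis serine kinases all rose, by 5.57 to 7.98. *Tssk2* had 0.105 to 1.3 CPM at day 20 and 143 and 125 at day 26.

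The flagellum divided into parts that changed by very different amounts. Of 15 genes of the outer dense fibres and fibrous sheath, which wrap the axoneme, 14 were called higher, with a median of 5.95. *Akap4* (chrX:7067519-7078609), the main protein of the fibrous sheath, had 0.55, 0.842, 0.462 and 2.59 CPM at day 20 and 528 and 475 at day 26. The 2 ages lay far apart, with a log2 fold change of 8.81 (SE 0.91, adjusted p = 4.51e-07). *Odf1*, of the outer dense fibres, went from 0.84 ± 0.757 to 163 ± 16.7 CPM. The axoneme and its transport genes moved much less: 26 of 34 were called higher and none lower, with a median of 0.96, and 17 of 34 were called when only the 6 libraries were fitted. The dynein arm genes *Dnah8* and *Dnah17* rose by 0.67 (SE 0.24) and 0.99 (SE 0.34). *Spag6l*, a central apparatus protein, was far above the rest at 6.16 (SE 0.60), with 0.737 to 3.24 CPM at day 20 and 96.8 and 123 at day 26. The transport genes *Ift81* and *Ift88* were not called, at 0.31 and −0.09.

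Of 17 sperm ion channel and transporter genes 16 were called higher, with a median of 1.66. Within CatSper, the calcium channel of the flagellum, the subunits fell into separate ranges. The pore subunits *Catsper1*, *Catsper3* and *Catsper4* rose by 7.43, 7.70 and 7.40, as did *Efcab9* by 6.76, whereas *Catsper2* rose by 1.66 and the auxiliary *Catsperb*, *Catsperd*, *Catsperg1* and *Catsperg2* by 0.67 to 0.96. *Catsper1* had 0.105 to 1.37 CPM at day 20 and 93.3 and 97.2 CPM at day 26. *Atp1a4*, the sodium pump of sperm, had 0 to 0.72 CPM at day 20 and 234 and 200 CPM at day 26.

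The lactate and glycolysis genes of germ cells also differed among themselves. Of 16 metabolic isoforms 11 were called higher and none lower. *Pgk2*, the germ cell phosphoglycerate kinase, had 55.3 to 99.3 CPM at day 20 and 439 and 400 at day 26 (a rise of 2.36 on the log2 scale, SE 0.20, adjusted p = 5.33e-08). *Ldhc*, the germ cell lactate dehydrogenase, was at 1068 ± 197 CPM at day 20 and 2011 ± 67 at day 26. *Gapdhs*, which is bound to the fibrous sheath, went from 0.377 ± 0.377 to 229 ± 31.3 CPM, while its somatic counterpart *Gapdh* fell from 225 ± 7.55 to 120 ± 20.9 CPM (−0.91, adjusted p = 9.5e-05). Of 15 somatic counterparts 5 were called lower, beside 18.1% of all genes tested, and 2 when only the 6 libraries were fitted. *Ldha* was the 1 called higher, by 0.82 (SE 0.15). *Pgk1* was not called, with 8.8 to 13.8 CPM at day 20 and 13.6 and 12.9 at day 26.

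Regulators of spermatid genes rose by modest amounts in most cases, with 15 of 19 called higher, 1 lower and a median of 1.01. *Crem* was at 87.9 to 151 CPM at day 20 and 207 and 230 at day 26 (0.98, SE 0.18, adjusted p = 0.000137). Its coactivator *Fhl5* was the exception in size, at 0.55 to 1.05 CPM and then 97 and 72.7 CPM (6.73, SE 0.69). *Rfx2*, *Sox30* and *Papolb* rose by 1.26, 1.81 and 1.72. *Taf7l*, an X-linked TFIID subunit, was lower by a small margin (−0.49, adjusted p = 0.0402), a call lost without WT_d20_2, WT_d26_1 or WT_d26_2 (adjusted p = 0.0514, 0.267 and 0.0541).

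**Figure D3:**
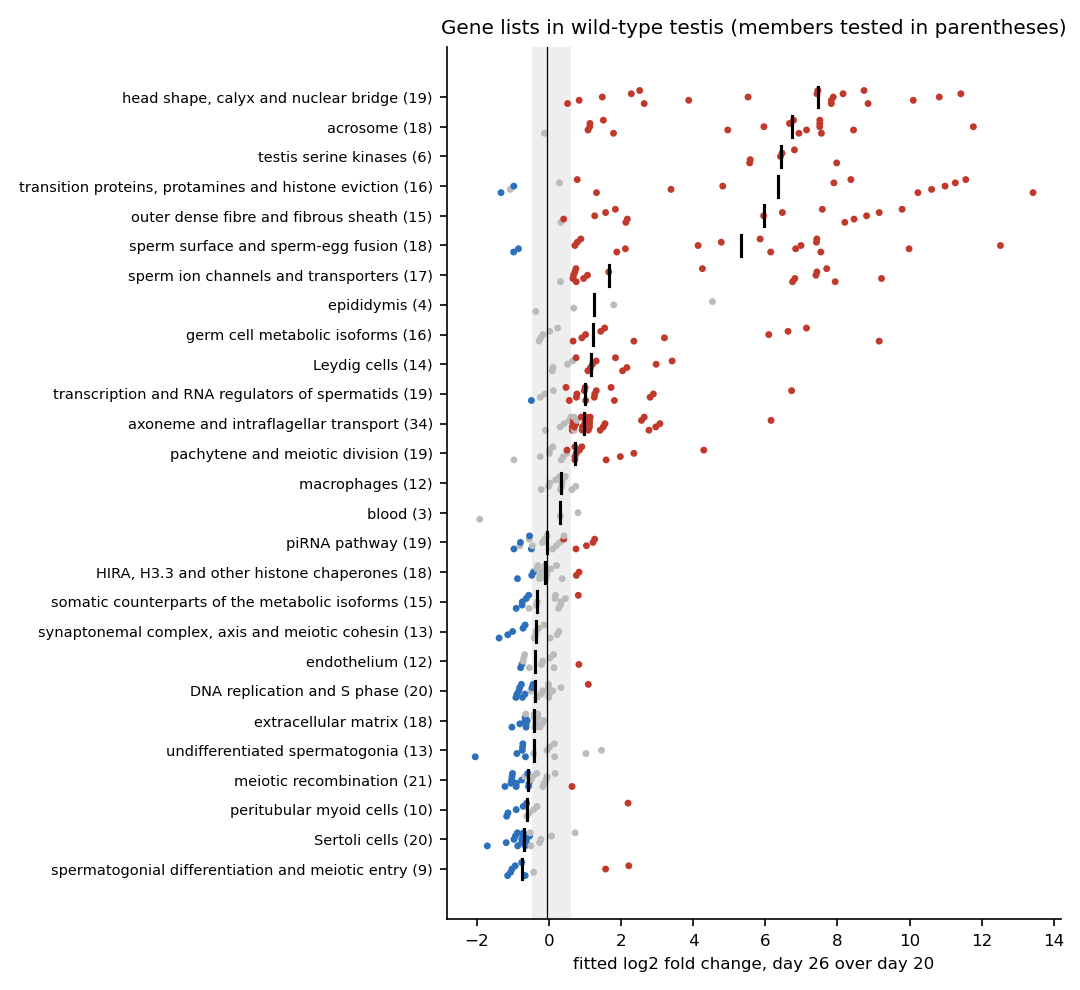
Fitted log2 fold changes of the members of 27 gene lists, WT day 26 over day 20, ordered by list median (short black bars). Red points were called higher, blue lower and grey not called; the thin line is the median of all genes tested, −0.04, and the grey band the interquartile range of all genes. Lists of spermatid structures lie at the top with medians up to 7.46, and those of meiotic entry and Sertoli cells at the bottom.

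Genes of pachytene and the meiotic divisions were called higher in 11 of 19 members and lower in none, with a median of 0.72. *Plk1*, a division kinase, rose by 1.98 (SE 0.26), *Ccna1*, a cyclin of the meiotic divisions, by 1.59 (SE 0.19), and *Calr3*, a germ cell chaperone, by 4.29 (SE 0.48). *Cdk1* and *Cdc25c* were not called, at −0.24 and 0.49. The piRNA pathway, which silences transposons, had 5 members called higher and 4 lower among 19, shares close to the 24.4% and 18.1% of all genes tested. *Tdrd6*, a chromatoid body protein, rose by 1.27 and *Tdrd7* by 1.22, whereas *Fkbp6*, a piRNA loading factor, fell by 0.97 on the log2 scale and *Pnldc1*, *Mov10l1* and *Tdrkh* by 0.79, 0.54 and 0.49. *Pnldc1* lost its call without WT_d26_2 (adjusted p = 0.0534), and *Mov10l1* and *Tdrkh* lost theirs without WT_d26_1 (adjusted p = 0.0975 and 0.134), which left 2 members called lower. Fitting only the 6 libraries left 3 members higher and 1 lower. *Piwil1* was at 395 ± 146 and 485 ± 65.7 CPM, which the test did not separate (adjusted p = 0.355).

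Many genes of earlier germ line steps were called lower at day 26. Over all genes tested the share called lower was 18.1%. Of 9 genes of spermatogonial differentiation and meiotic entry 6 were called lower and 2 higher, with the lowest list median, −0.75. *Stra8*, the retinoic acid target that starts meiosis, had 32.7, 45.1, 31.2 and 32.8 CPM at day 20 and 14.6 and 17.4 at day 26. No libraries overlapped, and the fitted change was −1.14 on the log2 scale (SE 0.26, adjusted p = 0.00144). *Kit* and *Prdm9* changed by −0.66 and −1.06. The 2 that rose were *Rec8*, a meiotic cohesin, with 6.95 to 12.7 CPM and then 43.2 and 52.9 CPM (2.21, SE 0.27), and *Dmrtb1*, a regulator of the entry into meiosis, from 146 ± 68.8 to 434 ± 36.5 CPM. The summed level of the list was 418 to 563 CPM at day 20 and 665 and 718 CPM at day 26, above day 20 although its median log2 fold change was below 0. The call of *Kit* was lost without WT_d26_2 (adjusted p = 0.166) and with only the 6 libraries fitted (adjusted p = 0.0838).

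Of 21 recombination genes 11 were called lower and 1 higher, with a median of −0.57. *Dmc1*, the meiotic recombinase, had 32.3 to 42.1 CPM at day 20 and 18.9 and 21.2 CPM at day 26 (−0.90, adjusted p = 0.00208). *Gm960* changed by −1.22, and the member that rose was *4930432K21Rik*, also named *Brme1*, a partner in recombinase loading, by 0.64, a call lost when only the 6 libraries were fitted (adjusted p = 0.0852). Among 13 genes of the synaptonemal complex, axis and cohesin, 5 were called lower, beside 18.1% of all genes tested. *Rad21l*, a meiotic cohesin, changed by −1.38 (SE 0.34). *Sycp1* had 505 to 560 CPM in 3 day 20 libraries, 1176 in WT_d20_2, and 397 and 441 at day 26, and its call (−0.72, adjusted p = 0.0472) was lost without WT_d20_2 (−0.37, adjusted p = 0.122) and without either day 26 library. *Sycp3*, at 263 to 313 and then 207 and 243 CPM without overlap, was not called, but was called lower with library totals (−0.46, adjusted p = 0.0421) and with the replicate block (−0.54, adjusted p = 0.00776).

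Of 20 replication genes 9 were called lower and 1 higher, beside 18.1% and 24.4% of all genes tested, with a median of −0.39. The helicase subunits *Mcm2*, *Mcm3* and *Mcm4* changed by −0.89, −0.73 and −0.83, *Mcm5* by −0.47, and *Mcm7* by −0.01, which was not called. *Chaf1a*, the large subunit of the CAF-1 histone chaperone, rose by 1.09 (SE 0.25), a call lost when only the 6 libraries were fitted (adjusted p = 0.0512). It was at 26.6 CPM in WT_d20_2, 61.5 to 72.3 in the other day 20 libraries, and 120 and 124 at day 26. Undifferentiated spermatogonia genes were called lower in 6 of 13 members, among them *Foxo1* (−0.73) and *Nanos3* (−2.04, from 1.1 ± 0.262 to 0.259 ± 0.0391 CPM). *Gfra1* and *Zbtb16* were not called, at 0.15 and −0.42, but without WT_d20_2 *Zbtb16* was called lower (−0.63, adjusted p = 0.00373). *Nanos3* lost its call without WT_d26_1 (adjusted p = 0.0678) and *Mcm5* without WT_d26_2 (adjusted p = 0.179). Fitting only the 6 libraries left 2 of these spermatogonial genes, 4 of the recombination genes, 3 of the replication genes and 1 of the synaptonemal genes called lower. Without WT_d26_1 these counts were 2, 5, 5 and 3, and without WT_d26_2 they were 4, 8, 7 and 3.

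Of 18 histone chaperone and H3.3 genes, which the study connects with ATAD2, 2 were called higher and 3 lower, beside 24.4% and 18.1% of all genes tested. Without WT_d20_2, 3 were higher and 6 lower, and without WT_d26_1, 1 was lower. Fitting only the 6 libraries left 1 higher and 0 lower, with *Atrx* at an adjusted p of 0.0784. *Atad2* itself was at 92.7, 171, 76.4 and 94.0 CPM at day 20, with WT_d20_2 the highest, and 113 and 138 at day 26 (0.21, SE 0.22, adjusted p = 0.45). Without WT_d20_2 *Atad2* was called higher (0.48, adjusted p = 0.00907). The H3.3 genes *H3f3a* and *H3f3b* were at −0.06 and −0.26 and *Hira*, which deposits H3.3, at −0.33, none of them called. Without WT_d20_2, *H3f3b* and *Hira* were called lower (−0.38 and −0.47, adjusted p = 0.0136 and 0.00959) and *H3f3a* was at 0.00615, not called. *H3f3b* was also called lower with library totals (−0.37, adjusted p = 0.0484). *Nasp* and *Daxx*, both histone chaperones, rose by 0.84 and 0.76, and *Atrx*, *Supt16* and *Atad2b* fell by 0.87, 0.48 and 0.43 on the log2 scale. Without WT_d26_2 neither *Nasp* nor *Daxx* was called (adjusted p = 0.0826 and 0.099), and *Daxx* was not called with library totals (adjusted p = 0.0536).

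Somatic cells of the testis did not move together. Of 20 Sertoli cell genes 14 were called lower and none higher, beside 18.1% and 24.4% of all genes tested, with a median of −0.68. *Shbg* (chr11:69614804-69617905), the androgen-binding protein, had 54.8, 56, 40.1 and 41.2 CPM at day 20 and 15.6 and 13.7 at day 26 (−1.71, SE 0.21, adjusted p = 1.51e-06). *Sox9*, the Sertoli cell transcription factor, went from 92.8 ± 11.8 to 51 ± 2.97 CPM, *Wt1* from 104 ± 13.3 to 67.9 ± 3.75 CPM, and the FSH receptor gene *Fshr* changed by −1.18. *Amh*, already at 2.95 to 8.67 CPM at day 20, was not called. The summed level of the 20 genes was 2639 to 3309 CPM at day 20 and 1803 and 1611 CPM at day 26. Fitting only the 6 libraries left 8 of the 20 called lower, *Wt1* not among them (adjusted p = 0.0727).

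Leydig cell genes went the other way, with 10 of 14 called higher, none lower and a median of 1.18. *Cyp17a1* (chr19:46667165-46673172), an enzyme of androgen synthesis, had 50.1, 53.2, 73.8 and 34 CPM at day 20 and 682 and 445 CPM at day 26. The day 26 libraries were far above day 20, with a fitted log2 fold change of 3.42 (SE 0.56, adjusted p = 7.07e-05). *Cyp11a1*, the side-chain cleavage enzyme that begins steroid synthesis, rose by 2.97 (SE 0.45), *Hsd17b3*, the last step to testosterone, by 2.04 (SE 0.36), *Star*, the cholesterol carrier, by 1.85 (SE 0.49) and the LH receptor gene *Lhcgr* by 1.21 (SE 0.37). *Insl3*, the peptide hormone of adult Leydig cells, had 9.98 to 23.6 CPM at day 20 but 115 and 36.6 at day 26, so that its call was lost without WT_d26_1 (1.10, adjusted p = 0.0999). *Hsd3b6* rose by 1.08 (adjusted p = 0.0387) and lost its call without any one of 5 libraries, among them WT_d20_2 (0.94, adjusted p = 0.106). The transcription factor *Nr5a1* was not called, at 0.10. Without WT_d26_1, 4 of the 14 genes were called higher, and without WT_d26_2, 9.

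Smooth muscle genes of the peritubular cells were called lower in 5 of 10 members and higher in 1, beside 18.1% and 24.4% of all genes tested. *Acta2* had 349 to 568 CPM at day 20 and 240 and 185 at day 26 (−1.13, SE 0.25), *Tagln* changed by −1.17 and *Myh11* by −0.91. *Actg2*, the enteric smooth muscle actin, rose from 8.57, 8.42, 21.4 and 11.9 CPM to 60.1 and 56 CPM (2.19, SE 0.33, adjusted p = 2.08e-05). Without WT_d26_2, 1 of the 10 was called lower. Of 18 matrix genes 7 were called lower, led by *Lama2* (−1.03), 1 without WT_d26_2 and 0 when only the 6 libraries were fitted. *Tagln* and *Lama2* lost their calls without WT_d26_2, at −1.15 and −0.80. *Lama2* was also not called when only the 6 libraries were fitted (adjusted p = 0.0587). Macrophage genes were not called in any of 12 members, with *Csf1r* at 33.4 to 47.6 and then 71 and 39.5 CPM. Among 12 endothelial genes *Cdh5* and *Kdr* were called lower and *Vwf* higher, shares no larger than the 18.1% and 24.4% of all genes tested, and neither was called lower when only the 6 libraries were fitted. *Kdr* lost its call in 8 of 15 alternatives, among them without WT_d20_2, WT_d20_3, WT_d26_1 or WT_d26_2 (adjusted p = 0.0737, 0.0704, 0.246 and 0.0922), and *Vwf* without WT_d26_1 (adjusted p = 0.111).

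Signs of other tissue were uneven between libraries. The summed level of 8 epididymis genes was 314 CPM in WT_d20_3 and 573 in WT_d26_2, but 36.4 to 42.2 CPM in the other 4, with *Lcn8* and *Lcn9* at 0 in all 6. WT_d20_3 also had the highest *Col1a1* of day 20 and the highest level of 5 of the 10 genes that fell most. The summed level of 8 blood genes was 5.11 to 13.1 CPM, but its 4 alpha and beta globin genes were at 0 in all 6 libraries. The part of the blood genes and the epididymis genes in the results above was not tested.

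**Figure D4:**
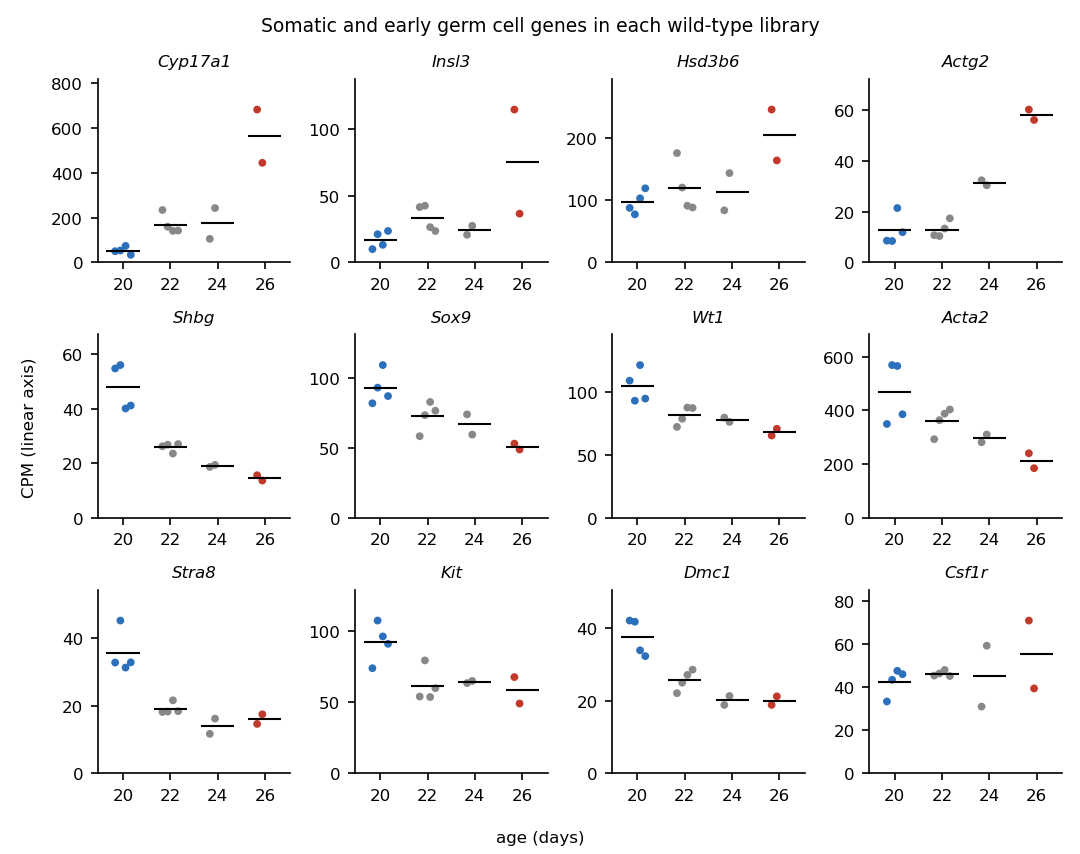
Level of 12 somatic and early germ cell genes in each WT library, as CPM on a linear axis from 0, against age in days. Points are libraries (blue day 20, grey days 22 and 24, red day 26) and bars are means; *Cyp17a1* is at 34 to 73.8 CPM at day 20 and at 445 and 682 at day 26, and *Shbg*, *Sox9* and *Stra8* are lower at day 26 in both libraries.

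The largest falls were found by the same rule as the largest rises. *Stc1*, the secreted glycoprotein stanniocalcin, had 13, 16.5, 66.2 and 32.6 CPM at day 20 and 2.2 and 3.44 at day 26 (−3.52, SE 0.94, adjusted p = 0.0057), a call lost without WT_d26_1 (adjusted p = 0.0661). *Ppp2r2c*, a regulatory subunit of protein phosphatase 2A, was at 16.6 to 28.5 and then 3.82 and 2.94 CPM (−2.80, SE 0.35, adjusted p = 1.67e-06). *Dlk1* and *H19*, both imprinted, changed by −2.26 and −1.79, *Spp1* (osteopontin) by −2.12, *Trim12a* by −1.89 and the scavenger receptor gene *Scara3* by −1.78. *Stc1*, *Ppp2r2c*, *Dlk1*, *H19* and *Scara3* were highest in WT_d20_3, a library with epididymis transcripts, and each was still called lower without it (−2.92, −2.73, −1.77, −1.57 and −1.54). WT_d26_2 had more of those transcripts (573 against 314 CPM summed) and held 3.44 CPM of *Stc1* and 2.94 CPM of *Dlk1*. A link between them was not tested. *Spp1* and *Trim12a* were highest in WT_d20_2, as were the remaining 3 of the 10, *mt-Rnr2*, *Hist3h2a* and *Hist1h1a*. *Hist1h1a* had 3714 CPM there and 602 to 830 in the other day 20 libraries, and its call was lost without either day 26 library (adjusted p = 0.0724 and 0.139). Without WT_d20_2, *mt-Rnr2* and *Hist3h2a* were not called (−0.77 and −0.92, adjusted p = 0.221 and 0.0924), nor were they without either day 26 library.

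Genes of the X chromosome, which is silenced in pachytene, were called lower more often than autosomal genes. Of 729 X-linked genes tested, 256 (35.1%) were called lower and 166 (22.8%) higher, with a median of −0.40. On the autosomes 17.4% were called lower and 24.4% higher, and the medians of single autosomes ran from −0.09 to 0.04. These shares are descriptions without a test. The X-linked share called lower was above the autosomal one in each of the 15 alternatives, from 11.6% against 3.39% when only the 6 libraries were fitted to 41.2% against 22.9% with library totals. More than 2-fold rises were called for 17.7% of X-linked genes and 10.5% of autosomal genes, with single autosomes from 7.95% to 17.0%, the highest being chromosome 14. *Akap4*, *Cypt3*, *Dusp21* and *H2afb1* were among them, the last with close copies and an uncertain count. Among the X-linked genes that fell, *Ccnb3*, a cyclin of early meiosis, went from a mean of 71.7 to 24.4 CPM (−1.55, SE 0.26) and *Tktl1*, a transketolase-like gene, from 60.7 to 24.1 CPM (−1.33, SE 0.22).

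The same genes were followed in the libraries of days 22 and 24. These were not part of the contrast of day 26 with day 20, but they entered the same fit and so its filter, scaling and estimate of spread. Between day 22 and day 24 in WT, edgeR called 1010 genes higher (5.88%) and 7 lower (0.0408%), numbers that fell to a total of 171 without WT_d24_1. Of the 4183 genes called higher from day 20 to day 26, 87.9% had a higher fitted level at day 24 than at day 22, against 50.7% of all genes tested, and 987 were called higher. Of the 3109 genes called lower, 85.3% had a lower level at day 24, against 49.3% of all, and 4 were called lower. The 28 genes more than 2-fold lower included 1 that was called lower between those days. The contrasts share no library, but they share that fit.

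**Figure D5:**
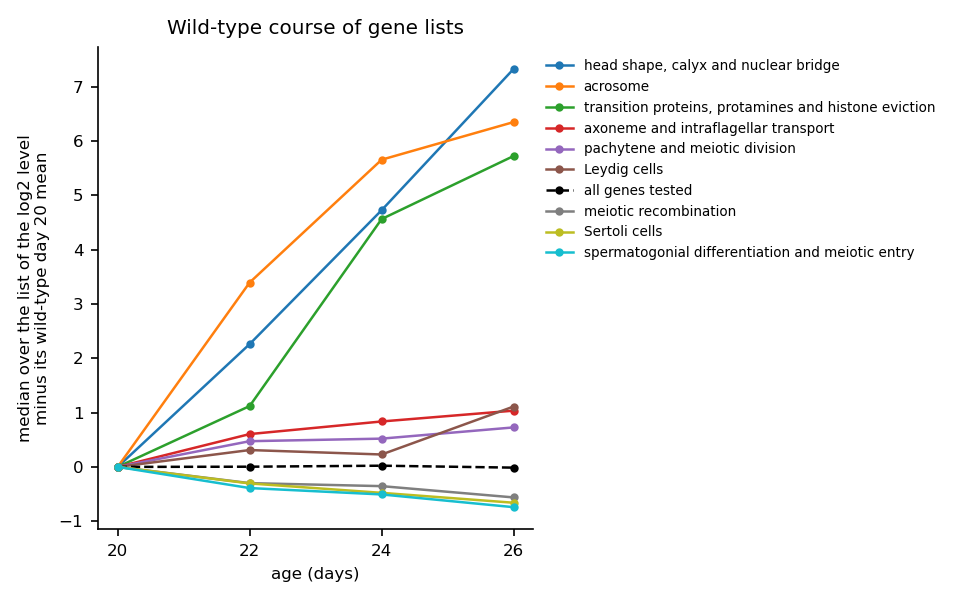
Median over the members of a gene list of the log2 level minus its WT day 20 mean (vertical axis), against age in days (horizontal axis), for 9 lists and for all genes tested (dashed). Acrosome genes are 3.40 above day 20 at day 22, when transition protein and protamine genes are at 1.12, and the latter reach 4.57 at day 24; Leydig cell genes are at 0.31, 0.23 and 1.11 at days 22, 24 and 26.

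The order in which the lists rose could be followed over the 4 ages. At day 22 the median acrosome gene was 3.40 above its day 20 level on the log2 scale, the outer dense fibre and fibrous sheath genes 2.97, the testis serine kinases 2.91 and the head shape genes 2.26. The transition protein and protamine list was at 1.12 at that age and at 4.57 at day 24. *Prm1* had a mean of 0.488 CPM at day 22 (SD 0.433, n = 4), 40.7 at day 24 (SD 8.98, n = 2) and 665 at day 26 (SD 395, n = 2). Leydig cell genes were at 0.31, 0.23 and 1.11 at the 3 later ages. Sertoli cell genes were at −0.30, −0.48 and −0.66, and genes of meiotic entry at −0.39, −0.51 and −0.74. The median of all genes stayed within −0.01 and 0.02. These are medians with no test.

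The same span in KO testes, in libraries of their own, was called for 4672 genes higher (27.2%) and 4283 lower (24.9%). Of the WT genes called higher, 98.7% were higher at day 26 in KO too, and of those called lower, 97.8% were lower, beside 47% higher and 53% lower over all genes tested. The difference between KO and WT in the change was called for 0 of 17170 genes (0%) by edgeR. The smallest adjusted p was 0.12, and 1857 genes had an unadjusted p under 0.05, by coincidence the number of genes that rose more than 2-fold in WT. DESeq2 called 211 differences, and leaving out KO_d20_2 gave 326. The list medians, which were not tested between KO and WT, were 3.44 in KO and 6.73 in WT for acrosome genes, 3.78 and 7.46 for head shape genes, 1.15 and 0.96 for the axoneme list and 1.03 and 1.01 for spermatid regulators. For Leydig cell genes they were 0.37 in KO and 1.18 in WT. A few counts move the fold change of genes with a mean under 1 CPM at WT day 20. These were 11 of 18 acrosome, 11 of 19 head shape and 0 of 14 Leydig cell genes, and their part in the medians was not tested. *Acrv1* had 2.48 to 30.4 CPM in the KO day 20 libraries, all above the WT day 20 libraries, and 157 and 188 CPM at day 26 (the difference in log2 fold change −3.89, adjusted p = 0.175). *Spag6l* at day 20 also lay higher in every KO library, at 4.12 to 26.8 CPM against 0.737 to 3.24 in WT (difference −3.45, adjusted p = 0.14). *Prm1*, *Akap4* and *Cyp17a1* overlapped between KO and WT at day 20. For *Akap4* only KO_d20_2 overlapped, at 2.42 CPM against 2.59 in WT_d20_4, and the other KO libraries had 7.04 to 40.2 CPM. Levels at day 20 were not tested between KO and WT.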

How the data were processed

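RNA was measured in whole testes by total RNA sequencing with ribosomal RNA depleted and strand kept. The authors aligned the reads with STAR 2.7.11b to mm10 and counted them per gene with HTSeq, and the deposited values are raw counts of reads per gene, 1 table per library. The authors normalized the counts with DESeq2 1.22.2 and tested them through SARTools; neither result was used here. The 5 tally lines of each table were kept out of library sizes: reads in no feature made up 45.1% to 58.5% of the 6 libraries, reads without a unique place 5.98% to 13.7%, and ambiguous reads 0.132% to 0.229%. Reads without a unique place were discarded, which lowers genes with near-identical copies. No per-sample column was left unused (0).

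Counts of all 24 libraries in 8 groups were fitted in edgeR 4.0.16 (R 4.3.3, limma 3.58.1) with filterByExpr at a minimum count of 10, which kept 17170 of 24456 genes, TMM scaling and a robust quasi-likelihood fit. Genes were called at a Benjamini-Hochberg adjusted p under 0.05 over all genes tested, and changes beyond 2-fold with glmTreat. SDs of CPM are over libraries. Genes with no count at day 20 are given against a floor of 3 counts over the group, and those with 1 to 3 counts as a ratio with an exact 95% interval, which covers counting error only. Gene positions are from GENCODE or RefSeq on the mm10 assembly, with 110 symbols not placed. Promoters run from 250 bases before to 50 bases after the RefSeq start on GRCm38.p6, 1 per symbol.

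Genes were named by rule: the 10 largest rises and the 10 largest falls with at least 10 CPM in the higher group and no overlap, a set of fixed names, and in each of 27 lists the called member with the largest rise, that with the largest fall and called members moving against their list. Other list members, X-linked genes and promoter genes are examples picked after their values were seen. The members and lists were chosen with earlier results of these data known. The scripts were tested on simulated data with 50 genes changed at each fold. They recovered 2% of 1.5-fold, 58% of 2-fold and 94% of 4-fold changes. The simulation held far fewer changed genes than were called here, and a gene not called may still have changed. Alternatives were DESeq2 1.42.0, other scalings and filters, fewer libraries in the fit, a non-robust fit, a replicate block and each replicate left out.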

Additional observations from a re-analysis of the deposited data

Results flagged for a closer look

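In 17 of the 83 named genes checked, 1 library of day 20 lay far from the other 3, by a distance to its nearest neighbour, as a share of the range of the 4 libraries, above Dixon's 95% critical value. Chance alone gives about 1 in 20 such groups. WT_d20_2 was the highest in 11 of them. There the distance was 0.945 of the range for *Hist3h2a*, 0.941 for *Ly6k*, 0.927 for *Hist1h1a*, 0.919 for *Sycp1*, 0.906 for *Taf7l*, 0.889 for *Stra8*, 0.885 for *mt-Rnr2*, 0.884 for *Atrx*, 0.84 for *Hist1h2aa*, 0.839 for *Spp1* and 0.832 for *Pola1*. WT_d20_3 was the highest for *Col1a1* (0.898) and *H19* (0.883). WT_d20_4 was the highest for the spermatid genes *Acrv1* (0.852), *Gapdhs* (0.843), *Tnp2* (0.841) and *Spaca1* (0.837), each still far below day 26.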

How the results depend on the processing

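Of 97 named genes, 38 changed direction or side of the threshold in at least 1 of 15 alternatives. Of the other 59, 53 had a value in all 15 and kept both, and 6 (*Ccdc185*, *Fam71a*, *Prm1*, *Prm2*, *Tnp1* and *Tnp2*) kept both in the rest but had no adjusted p from DESeq2. These missing values lie behind the 8 in place of 12 packaging genes called higher by DESeq2. Of the 810 counts of list members recomputed, 733 stayed within 1.5 times the main one. Fitting only the 6 libraries gave 3338 calls, 2722 higher and 616 lower, 45.7% of the 7292 shared. Leaving out 1 replicate gave 4724 to 7971 calls, 3347 to 4187 higher and 1377 to 3784 lower. A day 26 group of 1 library is then assumed to vary like the other groups. The 28 genes more than 2-fold lower became 7 with DESeq2, 45 with library totals, 11 with the 6 libraries and 15 to 42 with 1 replicate left out. From day 22 to day 24 the 1017 calls became 657 with the replicate block, 1561 with the libraries of those ages alone and 171 to 918 with 1 replicate left out. Differences between KO and WT numbered 211 with DESeq2 and 0 to 326 with 1 replicate left out. The replicate block gave 7767 calls from day 20 to day 26, 4315 higher and 3452 lower. The replicate numbers did not pair the samples, with correlations of 0.090 and 0.030. The uncalled *Col1a1* changed sign to 0.21 with the replicate block, and ranged from −0.79 to 0.28 with 1 replicate left out. *Csf1r* ranged from −0.12 to 0.73 and *H3f3a* from −0.13 to 0.00615. Beyond these constructions the cause was not tested. Depth sets a floor of 0.0562 CPM for genes without a count at day 20.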

Other observations

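Per kilobase of exon, *Prm1* and *Tnp2* were among the 25 highest genes at day 26, leaving out mitochondrial genes and exonic lengths of 300 bases or less. *Prm1* stood at 0.437 CPM per kb at day 20 and 1164 at day 26, rank 4, behind *Rpph1*, *Hist1h2ba* and *Ldhc*. That rank uses the mean of 2 unequal libraries, WT_d26_1 at 944 CPM and WT_d26_2 at 385 CPM. *Ldhc* was already at 676 CPM per kb at day 20 and reached 1273. *Tnp2* went from 0.366 to 604 CPM per kb, rank 14. *Crisp2*, a sperm surface protein gene, went from 269 to 590 CPM per kb and *Ybx2*, which binds stored messenger RNA, from 276 to 560. These are levels per length and carry no test between genes.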
